A study of Anthoceros agrestis with 2 samples.

Results

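Of the 9231 scored 1 kb bins of chromosome 6 of the hornwort Anthoceros agrestis, 662 were unmethylated, and these bins are described here. Chromosome 6 is the scaffold AnagrOXF.S6 of the Oxford assembly, and it is compared with chromosomes 1 to 5, the scaffolds AnagrOXF.S1 to AnagrOXF.S5. DNA methylation was read by EM-seq (Enzymatic Methyl-seq), in which an enzymatic treatment leaves methylated cytosines to be read as C and unmethylated ones as T, in 2 biological replicates of 4-wk-old thalli, the vegetative plant body, of the wild-type Oxford strain grown on agar medium under continuous light. There was 1 genotype, 1 tissue, 1 age and no treatment, so the comparisons are between chromosomes of the same plants. Whether each library came from 1 or several thalli was not stated in the sources used here.

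The level of a cytosine was the share of its reads called methylated, from a report in which the authors had merged the reads of both replicates, over cytosines with at least 10 reads. The level of a bin was the mean of its cytosines in 1 sequence context, namely CG, CHG or CHH, where H is A, C or T. A bin was scored with at least 5 such CG sites and 5 such CHG sites, and the bins were chosen by these levels: a bin was a member when its CG and its CHG level were both below 5%. The same rule chose 43903 of 102703 scored bins on chromosomes 1 to 5. Unmethylated bins were therefore 7.17% of the scored bins of chromosome 6 and 42.7% of those of chromosomes 1 to 5, where single chromosomes had shares between 39.4% on chromosome 3 and 48.5% on chromosome 4. Since these shares follow from the choice of the bins, they and the CG and CHG levels of the members are given as a description. Methylated bins, in which CG was 50% or more and CHG 30% or more, made up 82.4% of the scored bins of chromosome 6 and 33.6% of those of chromosomes 1 to 5. Bins methylated in CG only, in which CG was 50% or more but CHG under 10%, made up 3.10% and the remaining scored bins 7.34% on chromosome 6, against 6.79% and 16.8% on chromosomes 1 to 5.

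In flowering plants, CG methylation is copied after DNA replication by MET1, CHG methylation is kept by chromomethylases that bind methylated H3K9, and CHH methylation is placed anew in each cell cycle. Methylation in both CG and CHG is typical of transposable elements (TEs), while promoters and many genes are free of it and some gene bodies carry it in CG only. An unmethylated stretch within methylated DNA is thus bounded by edges, at which levels change over a short distance. A methylated cytosine mutates more readily to thymine than an unmethylated one, which is why the number of CG sites is often set against the number that base composition alone would give.

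The edges are shown first as sequence, because the runs of unmethylated bins are defined by where they stop. The stretches below are from the upper strand of the Oxford assembly, written 5′ to 3′, and were put together from the cytosines and trinucleotide contexts of both strands, so that n marks a base, A or T, that no listed cytosine determined. Capitals mark CG dyads, that is a CG site and its partner on the other strand, with a mean level of at least 50% over their cytosines with at least 10 reads. Dyads in lower case had a lower level or no such cytosine. The edge lies in the middle of each stretch of 240 bases, the first 2 are left edges, so that the unmethylated run begins in their right part, and the last 2 are right edges, so that the run ends in their left part. The first is the left edge of the longest run (12 kb), the next the left edge of a 9 kb run, and then come the right edges of a pair of 7 kb runs.
AnagrOXF.S6:9725768-9726007: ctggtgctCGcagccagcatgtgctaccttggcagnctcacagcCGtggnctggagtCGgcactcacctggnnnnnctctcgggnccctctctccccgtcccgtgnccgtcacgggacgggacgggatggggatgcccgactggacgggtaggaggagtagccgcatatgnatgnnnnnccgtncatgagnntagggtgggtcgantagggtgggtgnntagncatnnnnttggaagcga
AnagrOXF.S6:7821654-7821893: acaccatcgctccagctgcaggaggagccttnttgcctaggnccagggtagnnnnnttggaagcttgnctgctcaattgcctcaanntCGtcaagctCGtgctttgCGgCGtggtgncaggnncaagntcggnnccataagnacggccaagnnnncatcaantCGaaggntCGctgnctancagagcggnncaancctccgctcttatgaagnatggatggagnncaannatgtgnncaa
AnagrOXF.S6:9131960-9132199: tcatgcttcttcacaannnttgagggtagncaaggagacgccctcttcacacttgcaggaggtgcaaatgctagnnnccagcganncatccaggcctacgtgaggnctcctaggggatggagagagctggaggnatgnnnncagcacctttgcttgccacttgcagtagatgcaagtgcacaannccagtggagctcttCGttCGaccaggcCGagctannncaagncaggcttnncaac
AnagrOXF.S6:9672981-9673220: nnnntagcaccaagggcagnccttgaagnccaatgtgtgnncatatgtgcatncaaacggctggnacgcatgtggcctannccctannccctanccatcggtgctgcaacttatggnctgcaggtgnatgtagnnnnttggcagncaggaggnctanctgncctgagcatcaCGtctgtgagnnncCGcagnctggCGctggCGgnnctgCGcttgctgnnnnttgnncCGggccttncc

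At the left edge of the longest run, 5 of 16 CG dyads had enough reads, and 3 of them, all in the outer part, were at 50% or above while 2 were below 20%. At the left edge of the 9 kb run, 9 of 11 dyads had enough reads, 6 were at 50% or above and 3 below 20%, and a pair of methylated dyads lay on the inner side of the edge. At the edge that ends at AnagrOXF.S6:9132199, 4 of 6 dyads had enough reads, 3 of them at 50% or above on the outer side and 1 below 20% on the inner side. At the last edge all 9 dyads had enough reads, 6 were at 50% or above and 1 was below 20%. For contrast, a stretch of 200 bases from inside the longest run is given.
AnagrOXF.S6:9731841-9732040: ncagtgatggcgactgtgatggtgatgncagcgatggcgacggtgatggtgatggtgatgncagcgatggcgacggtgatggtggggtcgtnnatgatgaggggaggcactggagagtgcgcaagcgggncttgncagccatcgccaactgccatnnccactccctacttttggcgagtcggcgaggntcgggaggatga

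It holds 15 CG dyads, all with enough reads, of which 0 reached 50%, and their mean level was 0.256%. The distance at the edges between the last CG site below 20% and the first of 3 consecutive CG sites at 50% or above was 123 bp, 20 bp, 160 bp and 106 bp in the order printed. At the right edge of the same 9 kb run, which is not printed, it was 460 bp.

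Replicate 1 had 323429467 cytosine calls, replicate 2 had 325691541 and the merged report had 648374160, and the median depth of a cytosine on the chromosomes was 9 reads in the merged report. Scored bins were 78.4% of the 11772 bins of chromosome 6 and 91.2% of those of chromosomes 1 to 5, so unscored bins, 2541 in number on chromosome 6, interrupt its runs more often. The mean depth of the members had a median of 10.2 reads on chromosome 6 and 10.6 on chromosomes 1 to 5. A median of 56.6% of the cytosines of a member on chromosome 6 and of 60.3% on chromosomes 1 to 5 had at least 10 reads. Values of the merged report carry no SD. Replicate values, read at cytosines with at least 5 reads, are given as the mean ± SD of both replicates, and no test across plants was made with 2 replicates. The same 2 biological replicates are read on every chromosome. Their SD covers differences between these replicates, measurement included, and not differences between plants of other origin.

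Along chromosome 6 the members lay in the second part more than in the first. Up to position 5886000, the middle of the scaffold, there were 212 members among 5143 scored bins, or 4.12%, and beyond it 450 among 4088, or 11.0%. Counted in 1 Mb blocks, the number of members was 61, 24, 26, 18 and 35 in blocks 1 to 5, then 73, 12, 77, 100 and 150 in blocks 6 to 10, then 51 in block 11 and 35 in the shorter block 12. Block 10, which starts at 9000001, had the most members and also the highest share, 18.9% of its 793 scored bins. Block 7, which starts at 6000001, had the fewest and the lowest share, 1.57% of 762. The share of block 11, 15.6%, rests on only 327 scored bins of the 1000 in the block. On chromosomes 1 to 5 the 110 full blocks had shares between 16.4% and 58.1%, with a median of 44.3%, so that 10 of the 11 full blocks of chromosome 6 lay below the lowest of them.

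**Figure D1:**
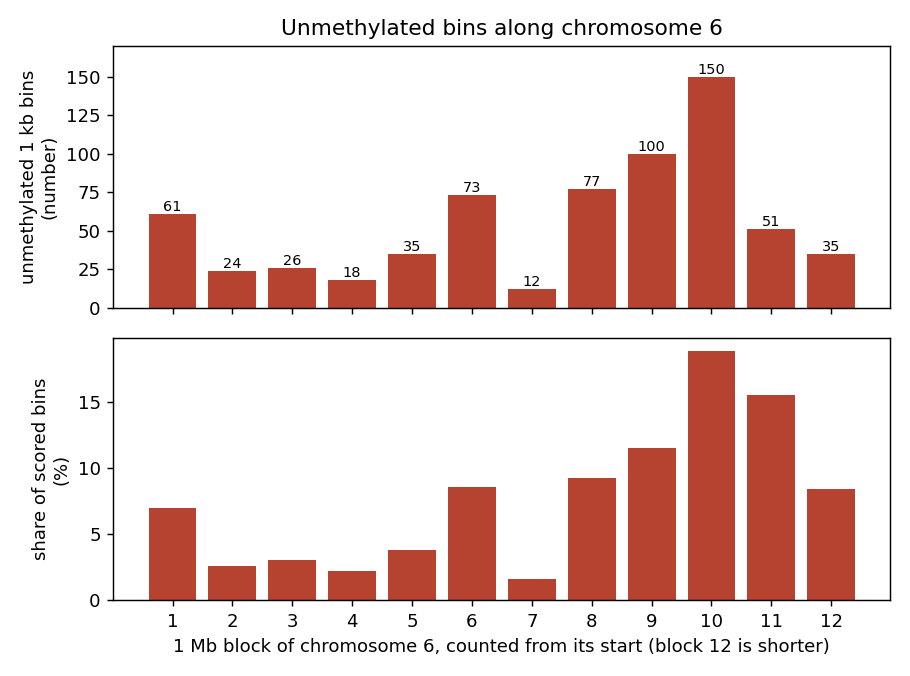
Number of unmethylated 1 kb bins (upper bars, with the count above each bar) and their share of the scored bins in percent (lower bars) in the 1 Mb blocks of chromosome 6, in order along the scaffold. The counts are highest in block 10 (150) and lowest in block 7 (12).

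The members of chromosome 6 were gathered rather than spread. The bin that followed a member was itself unmethylated for 374 of 624 members with a scored next bin, or 59.9%, which is 8.36 times the share among all scored bins of chromosome 6. On chromosomes 1 to 5 it was unmethylated for 75.3%, which is 1.76 times their share. Such a ratio has a lower ceiling where the share is higher, so the ratios do not compare gathering between the chromosomes. The shares are those of whole chromosomes, so differences between blocks count in the ratios as well. Of the 117 full windows of 100 kb on chromosome 6, 27 held no member (23.1%), of which 3 had fewer than 50 scored bins, the median window held 3 and the fullest held 30. Of the 1123 windows of chromosomes 1 to 5, 9 held none (0.801%), of which 5 had fewer than 50 scored bins, and the median window held 41. The 10% of the windows with the most members held 36.9% of the members on chromosome 6 and 16.4% on chromosomes 1 to 5.

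The 662 members formed 288 runs, a run being neighbouring members with no other or unscored bin between them. The distances between runs on chromosome 6 were uneven. Of 287 gaps, 99 (34.5%) were at most 5 kb long and 67 (23.3%) were at least 50 kb long, with a median of 15 kb. On chromosomes 1 to 5 the median gap was 3 kb, 73.5% of the gaps were at most 5 kb long and 1.09% at least 50 kb, with a range of that last share between 0.557% and 1.33% over the single chromosomes. The longest stretch of chromosome 6 without a member ran over 506 kb at AnagrOXF.S6:6021001-6527000, within block 7. Of its 398 scored bins 379 (95.2%) were methylated, with levels of 93.4% in CG and 64.7% in CHG, and 108 bins were unscored. The next longest stretches were 370 kb and 261 kb long, and the longest of chromosomes 1 to 5 was 225 kb.

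Joining runs separated by at most 5 bins gave 189 clusters, of which 122 were a run on its own and 65 were a bin on its own. The 10 clusters with the most members held 139 members (21.0%) within 201 kb, which is 1.71% of the chromosome. The cluster with the most members lay at AnagrOXF.S6:9100001-9141000. Its 41 bins were 22 members in 7 runs, 3 methylated bins, 3 bins methylated in CG only and 13 other scored bins. A pair of its runs, 7 kb each, was separated by 1 bin. The next were AnagrOXF.S6:11278001-11304000 with 17 members in 5 runs and AnagrOXF.S6:7154001-7183000 with 16 members in 5 runs.

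The runs of chromosome 6 were short. Their mean length was 2.30 kb, against 3.93 kb for the 11167 runs of chromosomes 1 to 5, where single chromosomes had means between 3.64 kb on chromosome 3 and 4.57 kb on chromosome 4. With runs called in each replicate alone, the mean was 2.27 kb and 2.28 kb on chromosome 6 and 3.90 and 3.93 kb on chromosomes 1 to 5, so the difference was far larger than that between replicates. The median was 2 kb on chromosome 6 and 3 kb on chromosomes 1 to 5, and the longest run was 12 kb on chromosome 6 and 52 kb on chromosome 4. Runs of a single bin were 137 of 288, or 47.6%, on chromosome 6 and 27.9% on chromosomes 1 to 5, with a range between 24.3% and 31.0% over the single chromosomes. Runs of at least 5 bins were 33 on chromosome 6 (11.5%) and 30.3% on chromosomes 1 to 5, and they held 32.8% of the members on chromosome 6 and 63.5% on chromosomes 1 to 5. Runs of at least 10 bins numbered 3 on chromosome 6 (1.04%) and 843 on chromosomes 1 to 5 (7.55%). Where runs were allowed to continue across unscored bins, the means were 2.38 kb on chromosome 6 and 4.00 kb on chromosomes 1 to 5. With a minimum of 20 reads per cytosine, which left 91 members, the order turned, with a mean of 1.42 kb on chromosome 6 and 1.11 kb on chromosomes 1 to 5.

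**Figure D2:**
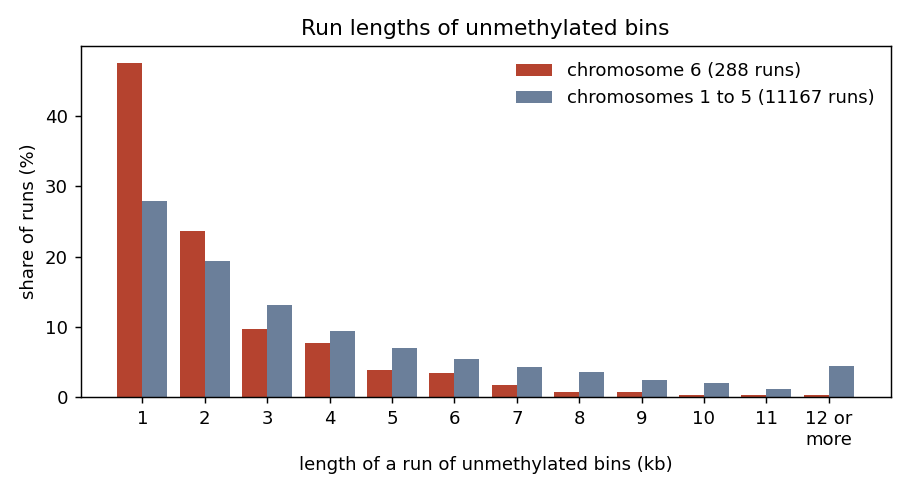
Share of runs in percent (bars, from 0) by the length of the run in kb, for the 288 runs of chromosome 6 and the 11167 runs of chromosomes 1 to 5. Runs of 1 kb are 47.6% on chromosome 6 and 27.9% on chromosomes 1 to 5, and runs of 12 kb or more are 0.347% and 4.46%.

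Run length was also set beside the density of members in 1 Mb blocks. Among blocks of chromosome 6, the 6 with shares of 6.96% or less (blocks 1 to 5 and 7) had mean run lengths between 1.33 and 1.85 kb, and the 6 with shares of 8.45% or more had means between 2.19 and 3.19 kb. Only 3 of the 110 full blocks of chromosomes 1 to 5 had a share no higher than the highest of chromosome 6. These were the first blocks of chromosomes 2 and 3 and block 32 of chromosome 1, its last full block, which a shorter block follows. Their 199 runs had a mean length of 2.15 kb and 51.8% of them were single bins, with block means between 1.93 and 2.29 kb. In block 10 of chromosome 6, the only one with a share in that range, 57 runs started, with a mean of 2.63 kb, and 43.9% were single bins. The comparison at like density thus rests on 1 block of chromosome 6, its densest, and 3 blocks at or near chromosome ends. The part of density in the shorter runs was not tested.

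**Figure D3:**
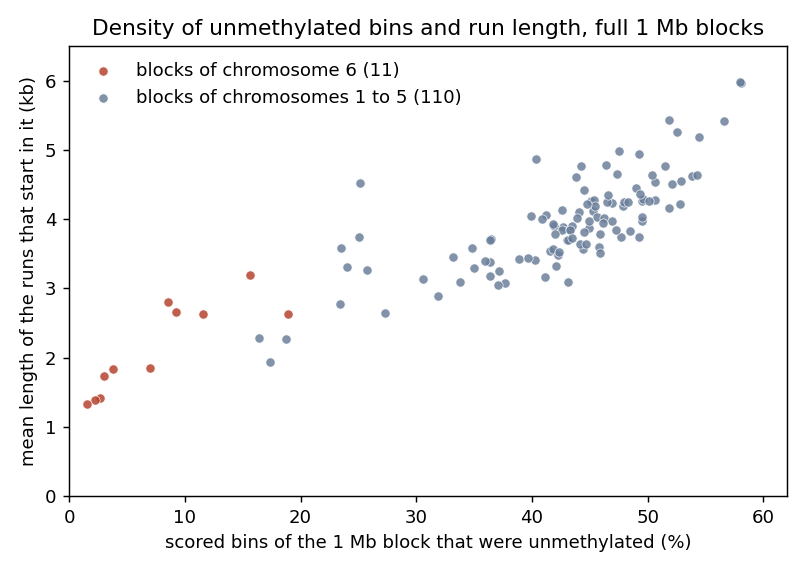
Full 1 Mb blocks (points, 11 of chromosome 6 and 110 of chromosomes 1 to 5) by the share of their scored bins that were unmethylated, in percent, and the mean length in kb of the runs that start in them. Blocks of chromosome 6 lie at shares up to 18.9% and means up to 3.19 kb, and only 3 blocks of chromosomes 1 to 5 lie at shares that low.

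The 5 longest runs were all in blocks 6 to 11. The longest, AnagrOXF.S6:9726001-9738000, was 12 kb long and had a CG level of 0.764% over 457 CG sites, with 1.21% in replicate 1 and 0.628% in replicate 2. The bin before it was methylated, at 92.4% in CG and 69.7% in CHG, and the bin after it was intermediate, at 24.1% in CG and 10.5% in CHG. The second, AnagrOXF.S6:5900001-5911000, was 11 kb long, had a CG level of 0.318% over 534 sites and was bounded by intermediate bins with CG levels of 22.1% and 43.8%. The third, AnagrOXF.S6:10406001-10416000, was 10 kb long and had a CG level of 0.0808% over 201 sites, with 0 in replicate 1 and 0.596% in replicate 2. This run had a mean depth of 6.29 reads, the lowest of the 5, with an unscored bin before it and a methylated bin, at 97.1% in CG, after it. The other two were 9 kb long. AnagrOXF.S6:7171001-7180000 had a CG level of 0.440% and intermediate bins on both sides, the lower of them at 6.77% in CG and 5.46% in CHG. AnagrOXF.S6:7822001-7831000 had a CG level of 0.874% and was the only one of the 5 with methylated bins on both sides, at 74.2% and 94.8% in CG. The G+C content of the 5 runs was between 49.1% and 53.1%, and the CG level of each was at most 1.21% in either replicate.

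The levels of the members, which the choice of the bins limits, were far below the 5% limit in most of them. On chromosome 6 the CG level of a member had a mean of 0.619% and a median of 0.163%, and the CHG level a mean of 0.349%, against a CG mean of 0.435%, a CG median of 0.101% and a CHG mean of 0.174% on chromosomes 1 to 5. Members with a CG level of 0 were 259 of 662 (39.1%) on chromosome 6 and 45.5% on chromosomes 1 to 5. Of the 32352 covered CG sites of the members of chromosome 6, 94.9% had a level of 0, against 97.1% on chromosomes 1 to 5. There were 59 CG sites at 50% or above on chromosome 6, in 39 members. Such sites were found in 5.89% of the members of chromosome 6 and in 5.29% of those of chromosomes 1 to 5. The members nearest below the limit were AnagrOXF.S6:4750001-4751000 with a CHG level that rounds to 5.00%, AnagrOXF.S6:8381001-8382000 with 4.95% and AnagrOXF.S6:8575001-8576000 with 4.91%. The bins nearest above it were AnagrOXF.S6:4583001-4584000 with 5.12% in CG, AnagrOXF.S6:9115001-9116000 with 5.15% in CHG and AnagrOXF.S6:1113001-1114000 with 5.19% in CG. Replicate values could lie far from these merged levels. They were read at cytosines with at least 5 reads and the merged levels at 10, so the cytosines averaged are not the same. In replicates 1 and 2, CG was 6.44% and 7.79% in the first of these bins and 0 and 18.9% in the third. In the second, CG was 4.63% in the merged report and 17.6% and 29.5% in the replicates, and CHG was 7.27% and 8.13% in the replicates. How much of this comes from the different cytosines was not tested. CHG in the member AnagrOXF.S6:8381001-8382000 was 10.6% and 0.75%. In 63 members (9.52%) the higher of the 2 levels was between 2.5% and 5%, and 48 bins lay between 5% and 7.5%.

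Each replicate read on its own returned nearly the same bins. Of the members that could be scored in a replicate, 625 of 654 (95.6%) were unmethylated in replicate 1 and 635 of 658 (96.5%) in replicate 2. Since the merged report holds the reads of both, bins were also chosen in 1 replicate and read in the other. Of 646 bins of chromosome 6 chosen in replicate 1 and scored in replicate 2, 607 (94.0%) were unmethylated there, with a mean CG level of 1.17% and a median of 0, and 1 was methylated. Of 653 chosen in replicate 2 and scored in replicate 1, 607 (93.0%) were unmethylated and 0 were methylated. The same shares on chromosomes 1 to 5 were 96.8% and 96.4%, so that bins of chromosome 6 were returned somewhat less often in both directions.

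CHH methylation took no part in the choice. The members of chromosome 6 had a CHH level of 0.129% ± 0.00339 (SD, n = 2) and those of chromosomes 1 to 5 of 0.101% ± 0.00722, with 0.131% and 0.127% in the replicates on chromosome 6 against 0.0960% and 0.106% on chromosomes 1 to 5, so the replicate values did not overlap. In the merged report the levels were 0.115% on chromosome 6 and 0.0997% on chromosomes 1 to 5. Methylated bins of chromosome 6 had 1.78% ± 0.0380, about an order of magnitude more than the members. Levels of the size seen in the members cannot be told apart from incomplete conversion, because no conversion control was used here.

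The difference in CHH was largest in the shortest runs. In members that were a run of 1 bin, the CHH level was 0.206% ± 0.0223 (SD, n = 2) on chromosome 6 and 0.120% ± 0.0000279 on chromosomes 1 to 5. In the first or last bin of longer runs it was 0.119% ± 0.00341 on chromosome 6 and 0.109% ± 0.00791 on chromosomes 1 to 5. In inner bins it was 0.0955% ± 0.00827 on chromosome 6 and 0.0938% ± 0.00768 on chromosomes 1 to 5, a difference smaller than the spread between replicates. The medians over bins in the merged report were lower than the means, at 0.0246% in single bins, 0.0319% in first or last bins and 0.0206% in inner bins of chromosome 6, and 0 in each of the 3 places on chromosomes 1 to 5. The CG level, which the choice of the bins limits, was likewise 1.02% in single bins and 0.371% in inner bins of chromosome 6, against 0.759% and 0.295% on chromosomes 1 to 5. Single bins were 20.7% of the members on chromosome 6 and 7.09% on chromosomes 1 to 5. By trinucleotide, the members of chromosome 6 had most at CAA (0.179% ± 0.0101) and CTA (0.172% ± 0.00494) and least at CTC (0.0918% ± 0.0124), and on chromosomes 1 to 5 CTA (0.121% ± 0.00677) and CAA (0.118% ± 0.00941) were highest and CTC (0.0892% ± 0.00697) lowest. CAA and CTA were also the highest in the methylated bins of chromosome 6, at 5.27% ± 0.0266 and 3.27% ± 0.0364. At CTC the chromosomes differed by less than the SD of either.

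In base composition the members resembled those of the other chromosomes. The G+C content of a member had a median of 51.6% on chromosome 6 and 51.3% on chromosomes 1 to 5, where the single chromosomes lay between 51.0% and 51.5%. The 10th and 90th percentiles were 46.7% and 56.8% on chromosome 6 and 46.8% and 58.3% on chromosomes 1 to 5. The ratio of observed CG sites to the number that the C and G content of the bin would give had a median of 0.632 on chromosome 6 and 0.629 on chromosomes 1 to 5. The median number of CG cytosines in a member, both strands counted, was 82 on chromosome 6 and 80 on chromosomes 1 to 5. Bins of 2 kb gave a median G+C content of 51.0% on chromosome 6 and 51.3% on chromosomes 1 to 5, so the order of these medians was not stable.

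The methylated bins differed more between the chromosomes. Over all of them, near a member or not, the median G+C content was 50% on chromosome 6 and 46.9% on chromosomes 1 to 5, with a range between 46.6% and 47.3% over the single chromosomes. Members were thus closer in G+C content to the methylated bins of their chromosome on chromosome 6 than on chromosomes 1 to 5. Composition changed little with the place in a run on chromosome 6, with medians of 51.7% in single bins, 51.65% in first or last bins and 51.5% in inner bins, against 50.9%, 50.9% and 51.6% on chromosomes 1 to 5. The CG ratio was 0.606 in single bins and 0.645 in inner bins of chromosome 6, against 0.644 and 0.619 on chromosomes 1 to 5, so that its order by place was opposite.

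A run of 6 members at AnagrOXF.S6:8235001-8241000 stood apart from all others. Its bins had mean depths between 234 and 1463 reads and G+C contents between 19.9% and 40.3%, while the other 656 members had a median depth of 10.2 reads, at most 30.5, and a median G+C content of 51.6%. Only 4 of these 656 had a G+C content below 40%. The bins before and after the run were unscored, with 0 cytosines of at least 10 reads in either. CG levels in the run were between 0.0769% and 0.248%. Without the 8 members whose depth was over 27 reads, 3 times the median of a cytosine, 654 members remained, the mean run length was 2.29 kb and the CHH level of the members in the merged report was 0.114%. Values that rest on this run are thus as large without it, and where its reads come from was not tested.

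Outward from the runs, methylated bins became common within a few bins on chromosome 6. Directly beside the 288 runs were 576 flank positions, in which the bin of a gap of 1 bin (34 gaps) counts for the runs on both sides, and of these 126 (21.9%) were methylated, 62 (10.8%) were methylated in CG only, 324 (56.3%) were other scored bins and 64 (11.1%) were unscored. On chromosomes 1 to 5 the shares were 18.3%, 11.0%, 66.9% and 3.78%. Among scored bins only, methylated ones were 24.6% on chromosome 6 and 19.0% on chromosomes 1 to 5, where the range was between 18.5% and 20.1%. At 2 bins from the run the share of methylated bins among scored ones was 51.5% on chromosome 6 and 35.7% on chromosomes 1 to 5. At 10 bins it was 75.2% on chromosome 6 and 28.3% on chromosomes 1 to 5, close to but below the shares of all scored bins (82.4% and 33.6%). Unmethylated bins at that distance were 9.40% on chromosome 6 and 46.5% on chromosomes 1 to 5, somewhat above the 7.17% and 42.7% of all scored bins. The mean CHG level of the flanking bins was 19.7% at 1 bin, 44.1% at 5 bins and 50.9% at 10 bins on chromosome 6, against 13.7%, 18.5% and 18.9% on chromosomes 1 to 5.

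**Figure D4:**
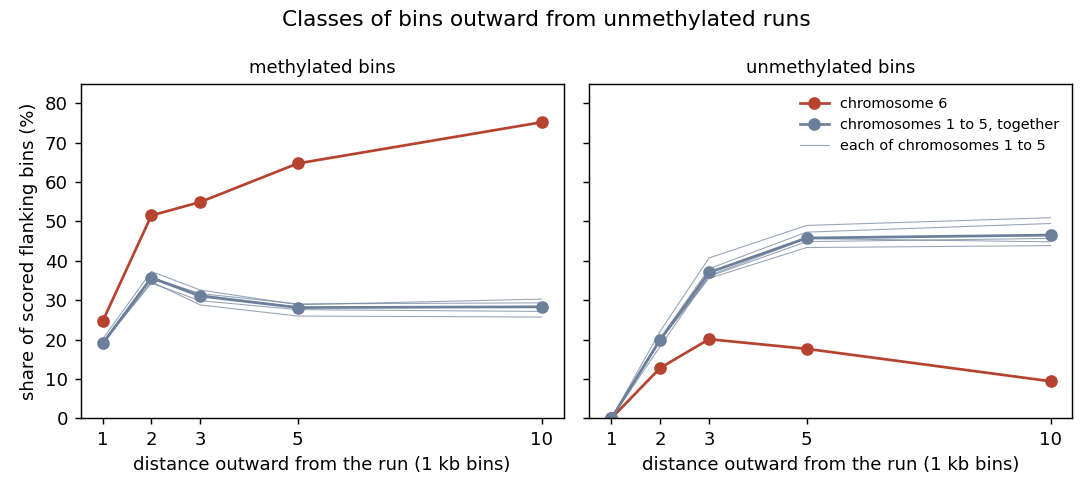
Share of scored flanking bins in percent that were methylated (left) and unmethylated (right), by distance outward from a run in 1 kb bins, for chromosome 6, for chromosomes 1 to 5 together (points) and for each of them (thin lines). At 10 bins methylated bins are 75.2% on chromosome 6 and 28.3% on chromosomes 1 to 5.

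Going outward from each run past intermediate and unscored bins to the first bin of a named class, both sides met a methylated bin in 85 runs of chromosome 6 (29.5%) and in 15.5% of the runs of chromosomes 1 to 5. At least 1 side met a methylated bin in 86.1% of the runs on chromosome 6 and in 69.8% on chromosomes 1 to 5. The combination met most often on chromosome 6 was a methylated bin on 1 side and a bin methylated in CG only on the other (93 runs, 32.3%, against 25.8% on chromosomes 1 to 5). At least 1 side met a bin methylated in CG only in 125 runs of chromosome 6 (43.4%) and in 46.6% of the runs of chromosomes 1 to 5, although such bins were 3.10% and 6.79% of the scored bins. Another unmethylated bin was met first on both sides by 8 runs of chromosome 6 (2.78%) and by 9.46% of those of chromosomes 1 to 5.

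Scored bins of chromosome 6 that were neither unmethylated nor methylated often lay near the members. A 1 kb bin that spans the edge of a run averages the sites of both sides, and how many of these bins do so was not tested. Of the 286 bins methylated in CG only, 133 (46.5%) lay within 2 bins of a member, and of the 678 other scored bins 351 (51.8%) did, while of the 7605 methylated bins only 390 (5.13%) did. On chromosomes 1 to 5, where members were much denser, these shares were 72.5%, 86.3% and 30.4%. Where a gap between runs of chromosome 6 was a single bin, which was so for 34 gaps, the bin was methylated in 0 of them, intermediate in 25 (73.5%) and unscored in 9. On chromosomes 1 to 5 the bin in such gaps was methylated in 5.02% and methylated in CG only in 7.57%.

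At single CG sites, the edge of a run was set where, going outward, the first 3 consecutive covered CG cytosines of either strand were at 50% or above. An edge was found within 10000 bp for 545 of the 576 run ends of chromosome 6 (94.6%) and for 97.4% on chromosomes 1 to 5. The distance between the last CG site below 20% and the first site of the edge had a median of 104 bp on chromosome 6 and 91 bp on chromosomes 1 to 5, with a range of medians between 89 and 95 bp over the single chromosomes. In 70.8% of the edges of chromosome 6 and in 78.5% of those of chromosomes 1 to 5 no covered CG site lay between. Wide edges were found too, and the 90th percentile of this distance was 542 bp on chromosome 6 and 368 bp on chromosomes 1 to 5. The span between the edges of a run had a median of 3086 bp on chromosome 6 (262 runs) and 4224 bp on chromosomes 1 to 5, and its 10th percentile was 1752 bp on chromosome 6 and 1913 bp on chromosomes 1 to 5. A run holds at least 1 whole bin of 1 kb, which limits how short a span can be, so nothing is read from the similar 10th percentiles. The 90th percentile was 7907 bp on chromosome 6 and 10548 bp on chromosomes 1 to 5.

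Because the edge was set on CG sites, the step in CG is built into it. CHG, CHH and G+C content took no part in setting the edge. The bins of the runs were however chosen for CHG below 5%, so low CHG inside the edge is partly fixed by that choice. CHH and G+C content were used in neither choice. In the first 100 bp outside the edge, CG was 75.8% on chromosome 6 and 76.3% on chromosomes 1 to 5. CHG in the same 100 bp was only 20.3% on chromosome 6, with 22.4% and 20.4% in the replicates, and 9.15% on chromosomes 1 to 5, with 9.99% and 9.46%. Between 400 and 500 bp outside, CHG had reached 33.0% on chromosome 6 (33.6% and 32.9% in the replicates) and 18.5% on chromosomes 1 to 5 (19.2% and 18.5%). CG between 1000 and 1100 bp outside was 68.4% on chromosome 6 and 54.9% on chromosomes 1 to 5, and CHG was 36.2% and 17.9%. CHG thus stayed below CG for at least 1 kb beyond the edges of both, at about 2 times the level on chromosome 6. The steps outside do not stop at the next run, and the median gap was 15 kb on chromosome 6 and 3 kb on chromosomes 1 to 5. How much of the difference this makes was not tested. Just inside the edge, in the last 100 bp, CHG was 8.25% on chromosome 6 and 3.99% on chromosomes 1 to 5.

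CHH outside the edge followed the same order. Between 400 and 500 bp outside it was 1.29% on chromosome 6, with 1.18% and 1.45% in the replicates, and 0.603% on chromosomes 1 to 5, with 0.606% and 0.641%. The 100 bp steps before and after this one were lower on chromosome 6, at 0.999% and 1.11%, against 0.580% and 0.626% on chromosomes 1 to 5. Between 900 and 1000 bp inside it was 0.185% on chromosome 6 and 0.0969% on chromosomes 1 to 5. The steps on either side were lower on chromosome 6, at 0.143% and 0.135%, against 0.107% and 0.0985% on chromosomes 1 to 5. G+C content was lowest at the edge itself, at 44.7% in the last 100 bp inside on chromosome 6 and 42.5% on chromosomes 1 to 5. It was 52.3% and 52.4% between 900 and 1000 bp inside, and 48.0% and 45.8% between 1000 and 1100 bp outside. An edge lies between CG sites by construction, so its surroundings hold fewer of them, and how much of the dip this makes was not tested.

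**Figure D5:**
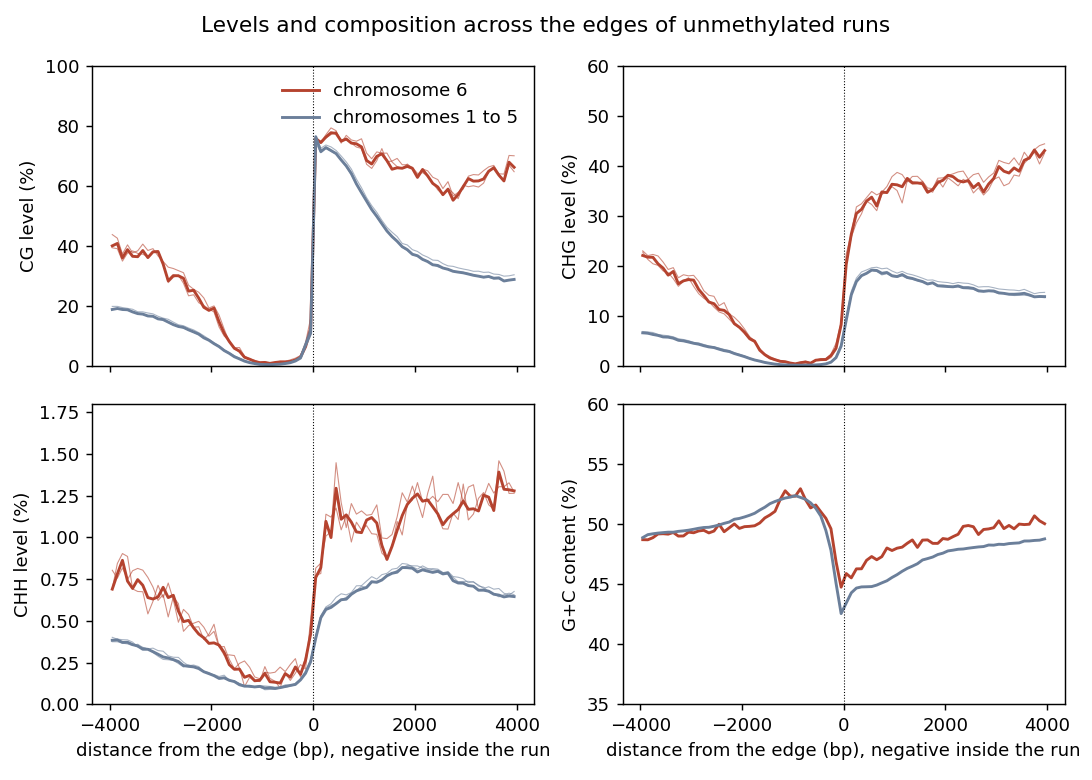
CG, CHG and CHH level and G+C content, all in percent, in 100 bp steps by distance from the edge in bp, negative toward the run, for 545 edges of chromosome 6 and those of chromosomes 1 to 5 (thick lines, merged report; thin lines, each replicate). CG steps up at the edge on both, CHG rises to 33.0% at 400 to 500 bp outside on chromosome 6 and to 18.5% on chromosomes 1 to 5, and G+C content is lowest at the edge. Beyond about 1 to 2 kb inside, the profile passes the far side of short runs, and outside it can reach the next run.

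Genes and TEs were placed on the members only from the part of the study's lists used here, which holds genes and TEs of 1 cluster each that the study had formed by chromatin profiles, so nothing is read from how many of them are unmethylated. Of 43 listed genes on chromosome 6, 40 touched a member, 27 lay wholly inside a run, and 1 touched a methylated bin. Body levels could be computed for the 42 genes with 5 or more covered CG sites, of which 38 (90.5%) were below 5% in CG and 0 reached 50%. Among the listed genes of chromosomes 1 to 5 with enough sites, 96.1% were below 5%. The listed genes carry the label of cluster 1. The paper describes its gene cluster P1 as not expressed, enriched for the histone marks H3K27me3 and H3K4me3, and depleted of cytosine methylation. Low levels thus follow from the list. Of 67 listed TEs, 51 touched a member and 44 lay inside a run. Of the 57 TEs with enough sites, 44 (77.2%) were below 5% in CG and 1 reached 50%, TE_homo_82447 at AnagrOXF.S6:7166591-7166685 with 64.0% over 12 CG sites (64.4% ± 6.30, SD, n = 2). Among the listed TEs of chromosomes 1 to 5 with enough sites, 92.0% were below 5%.

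The longest run held the genes AnagrOXF.S6G182200, with a CG level of 0.423%, and AnagrOXF.S6G182300, with 0.918%. The third longest held AnagrOXF.S6G195100, annotated with protein dimerization activity, AnagrOXF.S6G195200 and AnagrOXF.S6G195300, with CG levels of 0, 0 and 0.417%. The 9 kb run at AnagrOXF.S6:7171001-7180000 held AnagrOXF.S6G137900, annotated with electron transfer activity, with 0.354%, and AnagrOXF.S6G138000 with 0.130%. That run belongs to the cluster AnagrOXF.S6:7154001-7183000, which held 4 listed genes, more than any other cluster. Its other two genes, AnagrOXF.S6G137700 with 8.64% in CG and AnagrOXF.S6G137800 with 30.7% in CG and 31.8% in CHG, lay between runs and touched no member, and TE_homo_82447 lay in the same interval. AnagrOXF.S6G137800 was the only listed gene of chromosome 6 that touched a methylated bin.

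A pair of runs, chosen after their values were seen, shared the annotation of their genes. The 8 kb run that starts at 10110001 held AnagrOXF.S6G188400, annotated with heme binding and monooxygenase activity, and most of AnagrOXF.S6G188500, annotated with terpene synthase activity, the enzyme class that makes the carbon skeletons of terpenes. The 7 kb run that starts at 10525001 held AnagrOXF.S6G197400, annotated as a terpene synthase too, and part of AnagrOXF.S6G197500, annotated with heme binding and monooxygenase activity. The 4 genes had CG levels of 0.370%, 0.812%, 0.242% and 0.950% and CHG levels of at most 0.374%.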

How the data were processed

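Wild-type Oxford thalli, 4 wk old, were profiled by EM-seq in 2 biological replicates. The authors trimmed the reads with Trim Galore, mapped them to the Oxford assembly with Bismark and Bowtie2, removed duplicates and deposited counts of methylated and unmethylated calls at every cytosine, not normalized, for each replicate and for the merged reads of both. SAMtools 1.9 and bedtools 2.27.1 are also named in the submitters' processing notes.

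Levels, bins and classes were computed from these counts as described in the report, with Python 3.11.15, NumPy 2.4.6 and PyArrow 21.0.0, and plotted with Matplotlib 3.10.9. Runs end at any other or unscored bin. The members, the gene and TE lists and all rules were chosen with earlier results of these data known. The regions named are the 5 longest runs, the longest stretch without a member, the 1 Mb blocks with most and fewest members, and the 3 bins on each side of the limit; the 3 clusters with the most members, the deep run and the runs with terpene synthase genes were named after their values were seen. Sequences were chosen along edges of the longest runs with a methylated bin beside them and few undetermined bases. Genes named are the listed ones inside the 5 longest runs or in the cluster with the most listed genes, and any at 50% CG or above (there were 0), and 4 genes of the terpene synthase runs were added after their values were seen. No other genome sequence was used. The gene and TE lists are parts of longer ones, so no enrichment was tested. On simulated reads at the sites and depths of the 9231 scored bins, the calculation recovered 100% of planted bins and runs. The planted levels were far apart, so intermediate bins were not tested. Alternatives were other coverage minimums, bin sizes and limits, the summed replicate reports, each replicate alone, pooled calls, a depth limit of 27 reads, runs across unscored bins and, chosen after seeing the data, deep bins left out.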

Additional observations from a re-analysis of the deposited data

How the results depend on the processing

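The share of unmethylated bins stayed lower, and the share of methylated flanks higher, on chromosome 6 than on chromosomes 1 to 5 in all 14 settings, and runs stayed shorter and more often single in 13 of 14. The 14 settings include the main one, and runs across unscored bins cannot change the share of unmethylated bins. With 1 replicate left out, chromosome 6 had 655 to 671 members, a share of 6.98% to 7.19%, a mean run of 2.27 to 2.28 kb, 48.3% to 49.1% single runs, 20.4% to 20.6% methylated flanks and a median G+C content of 51.5% to 51.6%. A coverage minimum of 5 reads gave a share of 6.77%, runs of 2.28 kb, 49.7% single and 21.4% methylated flanks. A minimum of 20 reads gave 91 members, 6.57%, 1.42 kb, 87.5%, 4.69% and a G+C content of 52.2%, with far fewer bins scored. Bins of 500 bp gave 1462 members, 9.07%, 1.71 kb, 32.6% and 13.0%. Bins of 2 kb gave 252 members, 5.04%, 3.25 kb, 63.2%, 32.7% and 51.0%. A limit of 2% gave 6.24%, 2.19 kb, 50.6%, 17.3% and 51.7%, and a limit of 10% gave 8.09%, 2.36 kb, 25.8% methylated flanks and 51.4%. Runs across unscored bins gave 2.38 kb, 45.3% single and 22.7% methylated flanks. Sites over 27 reads left out gave 2.28 kb and 21.5%, pooled calls 22.3% methylated flanks, and deep bins left out, chosen after seeing the data, 2.29 kb and 21.7%. The cause of these shifts was not tested. The summed replicate reports changed none of the 6 values. No paired analysis was possible because there is 1 group and the results come from no test.

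A median of 9 reads per cytosine makes single sites coarse, and 21.6% of the bins of chromosome 6 could not be scored. Run lengths and flanks are in steps of 1 kb. With 2 replicates an SD is imprecise, and bins of a chromosome are not replicates of it.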
